A study of Mus musculus with 40 samples.

Results

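The p53 target genes Cdkn1a, Mdm2, Ccng1, Bax, Phlda3, Sesn2 and Trp53inp1, and the 3 Gadd45 genes Gadd45a, Gadd45b and Gadd45g, were followed through a mouse model of squamous lesions of the lung. These 10 genes are 10 of the 37310 genes in the deposited table, and all 10 were among the 14897 genes that passed the filter on low values in the 25 samples labelled as having passed quality control. They were selected on these same measurements, the library-scaled log2 levels (log2 CPM) of the 10 genes by histological grade, dose, sample type and strain. Their differences along those 4 axes are therefore given as a description. Where a model was fitted across all genes, the number of the 10 genes it called is printed beside the share of all genes called, and on these 25 samples nothing is read from that number for grade, dose, sample type or strain.

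The samples came from SWR/J mice (written SWJ among the sample characteristics) and A/J mice. The animals received N-nitrosotris-(2-chloroethyl)urea (NTCU), an alkylating carcinogen painted on the skin, or its acetone vehicle. RNA was taken either from whole lung sections or from cells isolated by laser capture microdissection (LCM). The mice were female and entered the study at about 8 weeks of age, and their age at sampling is not given in the sources used here. The animal behind each sample is not given either, so the spread between samples may hold more than 1 sample from an animal. Some sample titles differ only by an added letter. They include a pair in the mild group and a pair of normal samples split by quality control. Whether such pairs share an animal or a specimen is not given.

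The 7 normal samples had all received acetone, 0 µmol of NTCU, and consisted of 4 SWR/J and 3 A/J samples. The 5 mild dysplasia samples were all SWR/J at 15 µmol. The 9 samples with moderate to severe dysplasia were 3 A/J samples at 14 µmol, 2 SWR/J samples at 25 µmol and 4 SWR/J samples at 30 µmol. The 2 severe dysplasia samples were SWR/J at 50 µmol, while the single carcinoma in situ and the single squamous cell carcinoma (SCC) tumor were A/J at 20 µmol. The last 4 grades together are called high-grade (n = 13). Because no sample graded dysplastic was free of NTCU and no NTCU-treated sample was graded normal, grade and exposure cannot be told apart. The description differed from the grade in 2 of the 25 samples. Normal sample 10 was described as mild dysplasia, and mild sample 5 was described as normal.

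The transcription factor p53 accumulates when DNA is damaged and switches on genes that halt the cell cycle, repair DNA or kill the cell. Mdm2, itself a p53 target, tags p53 for destruction and so closes a feedback loop. The Gadd45 proteins are small stress proteins that bind cell cycle and kinase partners. Gadd45a is a classical p53 target, whereas Gadd45b and Gadd45g also answer to cytokine and differentiation signals. In the airway, alkylating carcinogens make adducts on DNA, and loss of p53 function is a common event in squamous carcinoma.

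To show what the p53 targets share in sequence, the p53 response element was searched for in the NCBIM37 genome (mm9, the build of the deposited table). The element is a pair of decamers, each with a core of C, a pair of A or T bases, and G, flanked by purines on the left and pyrimidines on the right. The search covered 2500 bases on either side of each gene start, on both strands at once because the element reads the same on each, allowed no spacer, and allowed up to 2 mismatches, none of them at the C and G of a core. It found 4 matches in 3 of the 10 genes, printed here on the strand of the gene with the C and G of each core in capitals.
Cdkn1a, chr17:29227873-29227892, plus strand, upstream: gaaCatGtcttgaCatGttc
Ccng1, chr11:40568964-40568983, minus strand, upstream: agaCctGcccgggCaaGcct
Ccng1, chr11:40568438-40568457, minus strand, intronic: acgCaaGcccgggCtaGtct
Bax, chr7:52721944-52721963, minus strand, exonic: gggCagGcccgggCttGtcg

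The Cdkn1a match was centred 42 bases before the annotated gene start and had 1 mismatch to the consensus. Both Ccng1 matches also had 1 mismatch, one centred 160 bases before the gene start and the other 366 bases after it. The Bax match lay in an annotated exon 315 bases after the gene start and had 2 mismatches. A match of this kind was present at 818 of the 14897 tested genes, or 5.491%, and it is a description of the sequence, not of binding. No match under these settings was found in the windows of the other 7 genes.

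Among the 10 genes, the highest mean levels per kilobase of exon over the 25 samples, on the length-corrected log2 RPKM scale, were those of Cdkn1a (6.14 ± 1.24, SD), Bax (6.10 ± 0.61), Phlda3 (6.09 ± 0.91) and Ccng1 (5.75 ± 0.82). Gadd45b (4.49 ± 0.65), Trp53inp1 (4.40 ± 0.95) and Gadd45g (4.30 ± 0.66) followed. Mdm2 (3.62 ± 0.52), Gadd45a (2.86 ± 0.38) and Sesn2 (2.59 ± 0.65) were the lowest. The first 4 means lay closer together than the SD of any one of them, and so did the next 3. Gadd45a shares 337 exonic bases with the antisense gene E230016M11Rik, and since the library kit does not mark strand, reads from the pair cannot be told apart there.

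The expected counts of the 25 samples summed to between 2667387 and 16534728, and their median transcript integrity number (TIN), an index of RNA quality, ranged from 21.7 to 75.1. The middle TIN of the group was 58.7 in normal, 57.8 in mild and 45.5 in high-grade samples. The log2 CPM levels printed by grade are not adjusted for TIN. Both sample types held reads of airway, alveolar and leukocyte marker genes, so a lower level in these tissues cannot be told apart from fewer cells of the type that expresses the gene. The normal group held 2 samples that stood apart by marker genes or description. Normal sample 7 (SWR/J, whole lung, TIN 28.9) had a summed level of 25693 CPM for the squamous markers, against 0.990 to 1966 CPM in the other 6 normal samples. Normal sample 10 (A/J, LCM) was graded normal but described as mild dysplasia. Normal sample 8 (SWR/J, whole lung) and severe dysplasia sample 2 (SWR/J, LCM) were the 2 samples that departed in principal component, TIN or correlation. Both were kept unless said. Genes of T lymphocytes (Cd4, Cd8a, Rag1, Dntt, Ptcra, Lck and Cd3e, a list added after the data were seen) also differed between groups. Their sum ran from 96.6 to 4952 CPM in normal samples, from 11.6 to 146 CPM in mild dysplasia and from 5.34 to 2934 CPM in high-grade samples. The list is not specific to immature cells. Normal sample 8 had a sum of 687 CPM with Rag1 at 1.23 log2 CPM, and normal sample 5 had 309 CPM with Rag1 at 5.91.

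Cdkn1a encodes p21, the inhibitor of cyclin-dependent kinases through which p53 arrests the cell cycle, and it had the widest spread between samples of the 10 genes. In normal samples its level ran from 4.53 to 8.09 log2 CPM with a median of 5.59. The 2 normal samples that stood apart had the highest values, 8.09 for sample 7 and 7.33 for sample 10, and the other 5 lay between 4.53 and 5.73. The lowest of these, 4.53, was normal sample 8. In mild dysplasia the 5 values were 6.91, 7.67, 7.91, 8.01 and 8.03, and in high-grade samples they ran from 6.84 to 9.14 with a median of 7.68. All 13 high-grade and all 5 mild samples were thus above the other 5 normal samples, whereas 5 of the 13 high-grade samples and 0 of the 5 mild samples exceeded normal sample 7. The carcinoma in situ stood at 8.79, the SCC tumor at 8.12 and the severe dysplasia samples at 6.88 and 7.53, so the level did not follow the order of grade above mild dysplasia.

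Phlda3, a p53 target that restrains Akt signaling, had the same layout. It ran from 4.47 to 7.23 log2 CPM in normal samples, with samples 7 and 10 at 6.92 and 7.23 and the other 5 no higher than 5.84. The mild samples read 6.27, 6.73, 6.78, 7.0 and 7.0, and the high-grade samples ran from 6.73 to 8.11 with a median of 7.22. All 18 dysplastic or malignant samples lay above those 5 normal samples.

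Ccng1, which encodes cyclin G1, a p53 target that feeds back on Mdm2 through a phosphatase, ran from 6.22 to 7.84 log2 CPM in normal samples with a median of 6.48. The mild samples read 7.48, 8.02, 8.15, 8.17 and 8.48, and 4 of the 5 exceeded every normal sample. High-grade samples ran from 6.86 to 8.77 with a median of 7.79, all 13 above the normal median and 6 above the highest normal sample. The high-grade values split by strain: the 5 A/J samples read 8.16, 8.33, 8.34, 8.58 and 8.75, while the 8 SWR/J samples ran from 6.86 to 8.77 with a mean of 7.46.

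Bax, the mitochondrial pore protein that carries out p53-induced apoptosis, ran from 5.58 to 6.58 log2 CPM in normal samples with a median of 5.84. The mild samples read 5.51, 6.33, 6.71, 6.76 and 6.89. High-grade samples ran from 6.10 to 8.08 with a median of 6.69, and 8 of the 13 lay above the highest normal sample. The SCC tumor, at 7.42, and the carcinoma in situ, at 7.48, ranked below a single moderate to severe sample at 8.08.

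Sesn2, a stress sensor that dampens mTOR signaling, was the lowest of the p53 targets per length. It ran from 3.03 to 4.57 log2 CPM in normal samples with a median of 3.74. The mild samples read 4.31, 4.63, 4.82, 4.95 and 5.22, and high-grade samples ran from 3.47 to 5.37 with a median of 4.71. In high-grade samples the mean was 4.26 in LCM and 4.90 in whole lung.

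Mdm2 and Trp53inp1 did not share this layout. Mdm2 ran from 5.29 to 6.37 log2 CPM in normal samples, with a median of 6.01, and from 4.80 to 6.66 in high-grade samples, with a median of 6.21. Trp53inp1, a stress protein of nucleus and autophagosome, ran from 5.89 to 8.72 in normal and from 4.91 to 8.29 in high-grade samples. No high-grade or mild sample exceeded the highest normal sample for Trp53inp1. For Mdm2, 5 of the 13 high-grade and 1 of the 5 mild samples did. The 2 samples at 25 µmol lay below every normal sample for Mdm2 (4.80 and 4.85) and for Trp53inp1 (4.91 and 5.35).

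Of the Gadd45 genes, Gadd45g alone was higher in most high-grade samples than in every normal sample. The 7 normal samples lay close together, from 3.63 to 4.34 log2 CPM with a median of 3.98 and an SD of 0.23. The mild samples read 3.82, 4.09, 4.35, 4.44 and 4.84. High-grade samples ran from 3.95 to 6.10 with a median of 4.82, and 10 of the 13 exceeded the highest normal sample.

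By grade, the Gadd45g level averaged 3.96 ± 0.23 log2 CPM in normal samples (SD, n = 7), 4.31 ± 0.38 in mild dysplasia (n = 5) and 4.82 ± 0.47 in moderate to severe dysplasia (n = 9). The 2 severe dysplasia samples read 4.31 and 4.32, the same as the mild mean, and the SCC tumor (5.95) and the carcinoma in situ (6.10) were the 2 highest of all 25 samples. Those 2 samples were also the only ones at 20 µmol and both were A/J, so grade, dose and strain cannot be told apart there. The mild samples (3.82 to 4.84) overlapped with the normal samples (3.63 to 4.34) and with the moderate to severe samples (3.95 to 5.47), their neighbours in grade. Normal samples 7 and 10, which were high for Cdkn1a, read 3.77 and 4.34 for Gadd45g.

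Gadd45a, the family member under direct p53 control, read 3.05 to 4.56 log2 CPM in normal samples, 3.27 to 3.99 in mild dysplasia and 3.12 to 4.35 in high-grade samples. Gadd45b, a cytokine- and stress-induced member, read 2.88 to 6.07 in normal samples, 4.43 to 5.49 in mild dysplasia and 4.19 to 5.52 in high-grade samples. For both genes the highest value was that of normal sample 7, and the groups overlapped throughout.

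**Figure D1:**
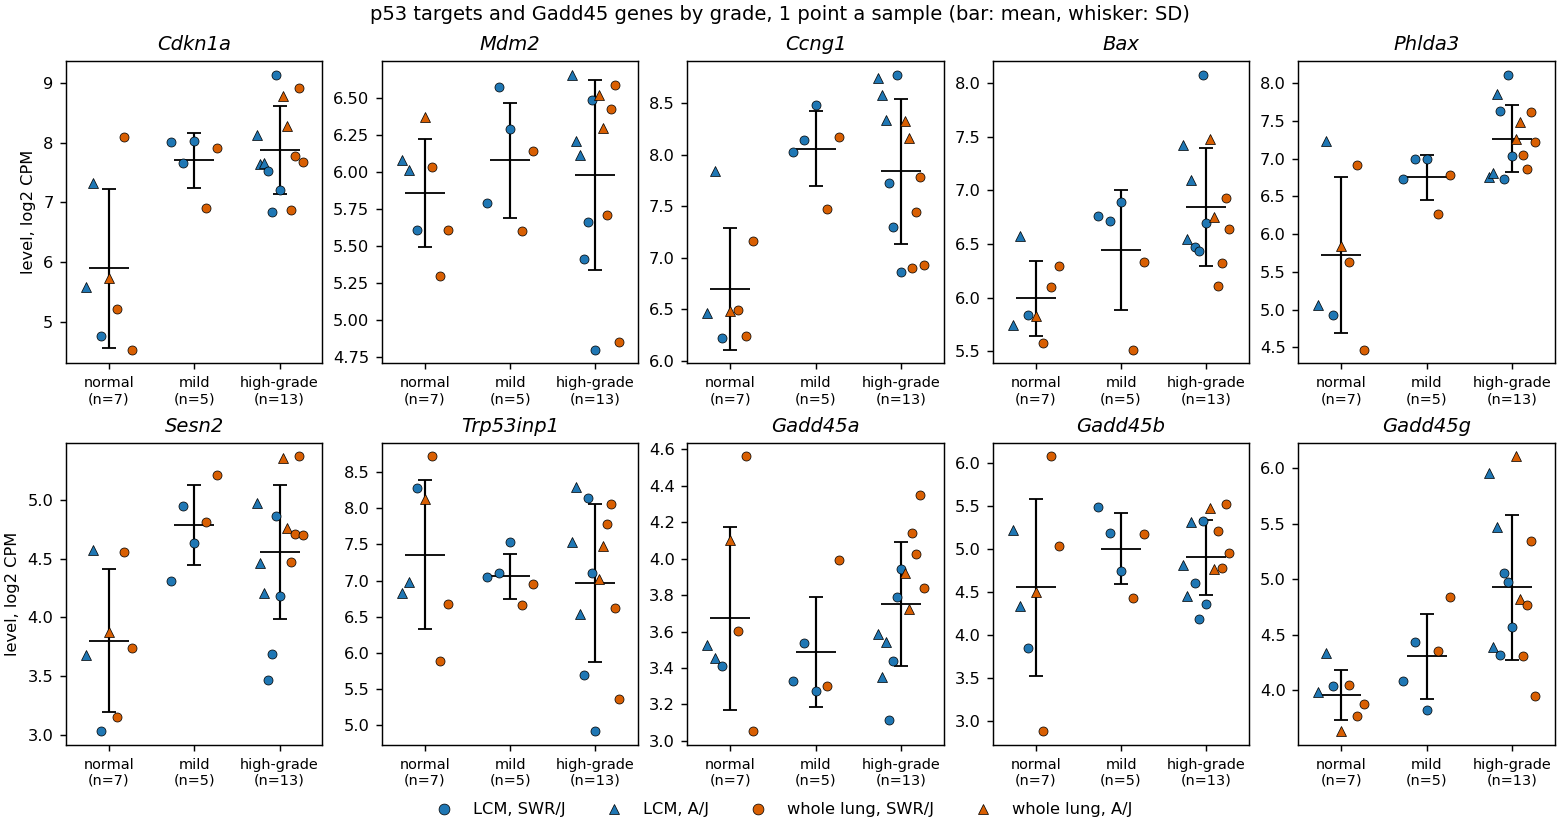
Level (log2 CPM) of each of the 10 genes in the 25 samples, by grade group on the horizontal axis, with 1 point a sample, bars at the mean and whiskers of 1 SD. Colours separate LCM from whole lung and shapes separate SWR/J from A/J. For Cdkn1a and Phlda3, 5 of the 7 normal samples lie below every mild and high-grade sample, and for Gadd45g 10 of the 13 high-grade samples lie above every normal sample.

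In a single edgeR model over all 14897 genes, adjusted for strain, sample type and median TIN, the fitted log2 differences between high-grade and normal samples were 1.59 for Cdkn1a (SE 0.45, 3.01-fold), 1.24 for Ccng1 (SE 0.27), 1.24 for Gadd45g (SE 0.24), 1.15 for Phlda3 (SE 0.31), 0.86 for Bax (SE 0.26) and 0.80 for Sesn2 (SE 0.24). The other 4 genes ranged from -0.12 for Trp53inp1 (SE 0.44) to 0.33 for Mdm2 (SE 0.23). The median of the 10 genes was 0.83, and that of all genes 0.00470. At an adjusted p under 0.05, edgeR called 0 of the 10 genes and 0.0201% of all genes (3 genes), with 6 of the 10 genes and 1365 of all genes at an unadjusted p under 0.05. DESeq2 called 3 of the 10 (Ccng1, Phlda3 and Gadd45g) and 0.577% of all genes. Without normal samples 7 and 10, a setting chosen after seeing the data, the fitted difference was 2.85 for Cdkn1a (SE 0.44, 7.20-fold), 1.87 for Phlda3 (SE 0.28) and 1.31 for Sesn2 (SE 0.25), edgeR called these 3 genes, and it called 0.167% of all genes. Normal sample 8 was kept in that setting. As the 10 genes were chosen on this contrast, nothing is read from these counts.

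In mild dysplasia the fitted differences from normal were 1.89 for Cdkn1a (SE 0.63, 3.71-fold), 1.40 for Ccng1 (SE 0.33, 2.64-fold), 1.2 for Sesn2 (SE 0.32, 2.31-fold) and 1.13 for Phlda3 (SE 0.42, 2.19-fold). The other 6 genes ranged from -0.64 for Trp53inp1 (SE 0.57) to 0.53 for Gadd45b (SE 0.39). The first 3 were called, 3 of the 10 genes beside 13.2% of all genes, from which nothing is read because grade chose the genes. This count depended on single samples: it was 1 without mild sample 2 or 4 or without normal sample 3, 6 or 8, it was 2 without any other mild sample or normal sample 5 or 9, and it was 4 without normal sample 7 or 10. Both groups were compared with the same 7 normal samples, so the differences for mild and high-grade samples are not independent of each other.

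Between high-grade and mild samples, the largest fitted difference of the 10 genes was 0.77 for Gadd45g (SE 0.30), and the others ranged from -0.50 for Gadd45b (SE 0.38) to 0.52 for Trp53inp1 (SE 0.55). edgeR called 0 of the 10 genes beside 0.329% of all genes, with 1 of the 10 and 22.9% of all genes at an unadjusted p under 0.05. DESeq2 also called 0 of the 10, beside 1319 of all genes. With grade as a rank from 0 (normal) to 4 (carcinoma in situ or SCC tumor), the fitted slope was 0.47 per step for Gadd45g (SE 0.07), 0.49 for Cdkn1a (SE 0.19), 0.41 for Ccng1 (SE 0.12) and 0.33 for Phlda3 (SE 0.14). Gadd45g was the 1 gene called, beside 0.403% of all genes, and again nothing is read from this on the samples that chose the genes. Its slope was 0.43 in LCM samples alone, 0.50 in whole lung samples alone and 0.39 in SWR/J samples alone. It was not called in any of these subsets, nor with the lymphocyte gene covariate, where the slope was 0.44.

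**Figure D2:**
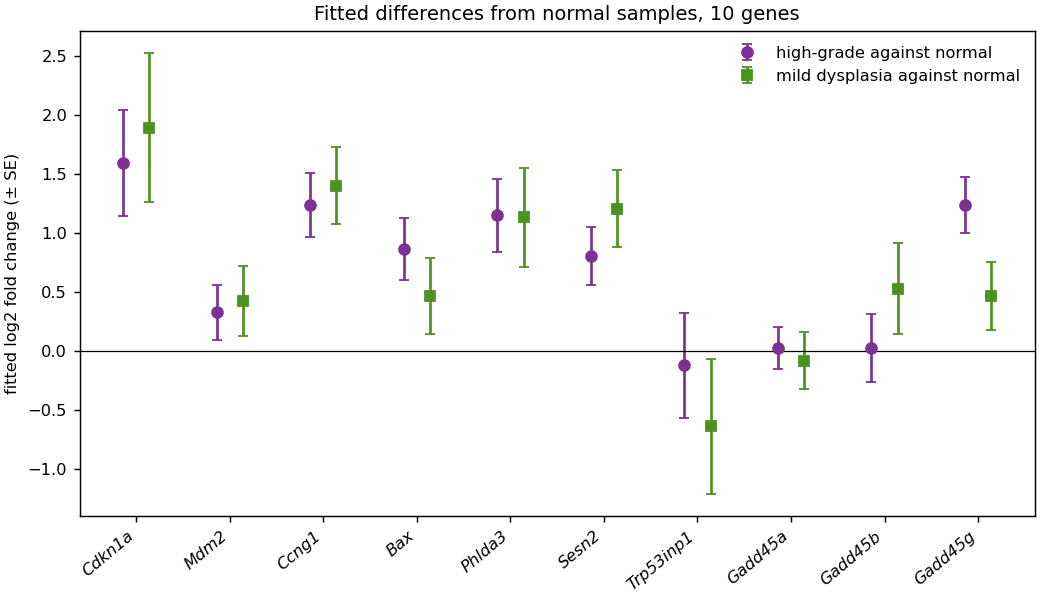
Fitted log2 fold change of the 10 genes in high-grade (circles, n = 13) and mild dysplasia samples (squares, n = 5) against the 7 normal samples, with whiskers of 1 SE. Cdkn1a, Ccng1, Phlda3 and Sesn2 lie above 0 in both comparisons, and Gadd45g is at 1.24 in high-grade and 0.46 in mild samples.

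The high-grade minus normal difference of means had the same sign in LCM and in whole lung samples for all 10 genes. It was 1.84 and 2.16 log2 units for Cdkn1a, 1.54 and 1.53 for Phlda3, 1.2 and 1.0 for Ccng1, and 0.84 and 1.05 for Gadd45g, in LCM and whole lung in turn. Within SWR/J and within A/J it was 2.10 and 1.88 for Cdkn1a, 0.94 and 1.5 for Ccng1, 1.79 and 1.19 for Phlda3, and 0.73 and 1.36 for Gadd45g. For Trp53inp1 it was -0.68 in SWR/J and 0.06 in A/J, and for Gadd45a 0.17 and -0.07. The interaction of high-grade with sample type, and that with strain, called 0 of the 10 genes and 0% of all genes in edgeR, with 0 of the 10 at an unadjusted p under 0.05 in either and 0 called by DESeq2.

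Between the sample types themselves, Sesn2 and Gadd45a had the largest fitted differences, -0.48 (SE 0.20) and -0.41 (SE 0.15) in LCM against whole lung. Neither passed in edgeR, which called 15.3% of all genes, and DESeq2 called Gadd45a alone of the 10. The share of all genes that DESeq2 called for sample type is not given here, so its call has no share beside it. As sample type and strain are among the axes on which the genes were chosen, nothing is read from these counts. Between A/J and SWR/J the largest was 0.89 for Cdkn1a (SE 0.60). There edgeR called 0 of the 10 genes, with 0 at an unadjusted p under 0.05, beside 0.973% of all genes. DESeq2 called 0 of the 10, beside 902 of all genes.

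By dose within SWR/J, Cdkn1a read 4.53, 4.75, 5.21 and 8.09 log2 CPM at 0 µmol and averaged 7.70 ± 0.47 at 15 µmol (SD, n = 5). At 25 µmol the 2 samples read 7.21 and 7.68, at 30 µmol the 4 samples read 6.84, 7.77, 8.93 and 9.14, and at 50 µmol they read 6.88 and 7.53. Both samples at 50 µmol thus lay below the mean at 15 µmol, the lowest NTCU dose in this strain. The samples at 25 and 50 µmol, which include both severe dysplasia samples, had summed skeletal muscle markers of 1753 to 6047 CPM. The other high-grade samples had at most 934 CPM. Squamous marker sums were 6313 to 9974 CPM against at most 1594 CPM, and TIN was 21.7 to 39.1 against at least 44.1. The part of tissue content and RNA quality in these levels was not tested. Gadd45g averaged 5.03 ± 0.24 at 30 µmol (n = 4), above its 4.31 ± 0.38 at 15 µmol, while the samples at 25 µmol (3.95 and 4.57) and 50 µmol (4.31 and 4.32) lay within the range at 15 µmol. In A/J, Gadd45g read 4.39, 4.82 and 5.47 at 14 µmol and 5.95 and 6.10 at 20 µmol. The fitted slope per 10 µmol in the 17 SWR/J samples was 0.33 for Phlda3 (SE 0.12), 0.28 for Cdkn1a (SE 0.23) and 0.24 for Gadd45g (SE 0.08). edgeR called 0 of the 10 genes and 0% of all genes, with 2 of the 10 and 3.18% of all genes at an unadjusted p under 0.05. DESeq2 called 0 of the 10. Dose, too, was used in choosing the genes.

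Trp53inp1 followed these T lymphocyte genes. The 3 normal samples whose lymphocyte gene sum lay between 3106 and 4952 CPM read 8.13, 8.29 and 8.72 log2 CPM for Trp53inp1, and the other 4, between 96.6 and 687 CPM, read 5.89, 6.68, 6.83 and 6.99. In high-grade samples the 3 with sums of 1070, 1926 and 2934 CPM read 8.29, 8.06 and 8.14, above the other 10. In the 5 samples with at least 8 log2 CPM of Rag1, the recombinase gene of developing lymphocytes, Rag1 read 8.78, 9.46 and 10.02 in 3 normal samples and 8.36 and 9.02 in 2 high-grade samples. Cdkn1a read 4.75, 5.21 and 5.73 in these normal and 6.84 and 7.77 in these high-grade samples, and Gadd45g read 3.63, 4.04 and 4.05 against 4.77 and 5.05. The part of lymphocyte content in the differences of these genes was not tested by this.

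With the log2 lymphocyte gene sum as a further covariate, an alternative chosen after seeing the data, the fitted high-grade difference was 1.17 for Cdkn1a (SE 0.40), 1.04 for Ccng1 (SE 0.27), 0.97 for Gadd45g (SE 0.23), 0.93 for Phlda3 (SE 0.31) and 0.47 for Bax (SE 0.21). For mild dysplasia it was 0.97 for Cdkn1a (SE 0.64), 1.01 for Ccng1 (SE 0.38) and 0.65 for Sesn2 (SE 0.34). With that covariate edgeR called 0 of the 10 genes in mild dysplasia, 1 at an unadjusted p under 0.05, beside 1.59% of all genes. The 6 lymphocyte genes that passed the filter had a median log2 difference from normal of -7.38 for the mild and -0.97 for the high-grade group, and 1 of the 7 had no reads in any mild sample.

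**Figure D3:**
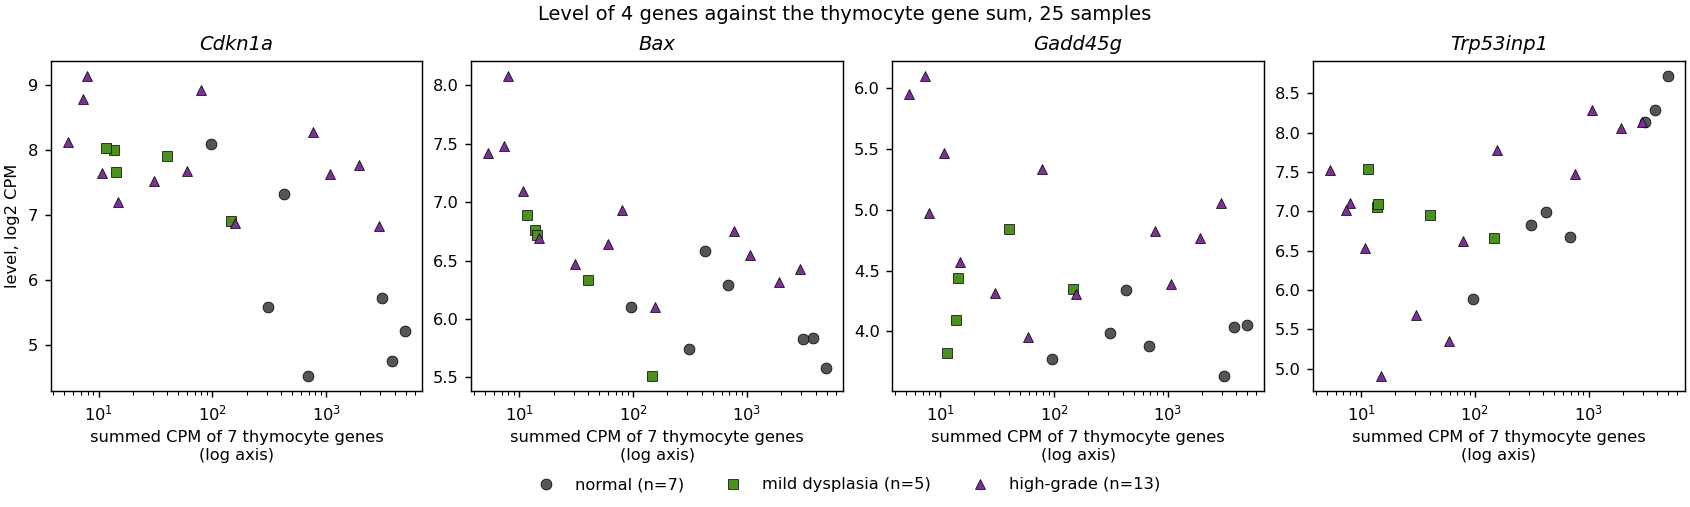
Level (log2 CPM) of Cdkn1a, Bax, Gadd45g and Trp53inp1 in each of the 25 samples against the summed CPM of 7 T lymphocyte genes (log axis), with circles for normal, squares for mild and triangles for high-grade samples. Trp53inp1 is at 8.06 or more in each of the 6 samples with a sum of at least 1070 CPM, and the Gadd45g values of normal samples lie between 3.63 and 4.34 at sums from 96.6 to 4952 CPM.

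The 15 samples that did not pass quality control were not used in choosing the genes and so allowed a test on other libraries, though very shallow ones, with totals between 17051 and 1965373. Whether they came from other animals than the 25 samples is not given. Cdkn1a read 5.20, 5.58 and 5.84 log2 CPM in the 3 normal samples and 7.86 and 8.0 in the 2 mild samples. In the 10 high-grade samples it ran from 1.92, the value of a library without a Cdkn1a read, to 8.57, with a median of 7.18, and 9 of the 10 lay above all 3 normal samples. Behind these values were 2 to 37 reads in normal and up to 392 reads in high-grade samples. Phlda3 read above all 3 normal samples in 7 of the 10, Ccng1, Gadd45a and Gadd45b in 5 each, Bax in 4, Mdm2 in 2, Trp53inp1 in 1, and Sesn2 and Gadd45g in 0 of the 10.

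In edgeR with strain and sample type as covariates, the high-grade difference in these samples was 2.14 for Cdkn1a (SE 0.88, unadjusted p = 0.0189, adjusted p = 0.655), 1.39 for Gadd45a (SE 1.18, adjusted p = 0.951), 1.30 for Phlda3 (SE 0.84, adjusted p = 0.863), 0.94 for Bax (SE 0.79), 0.80 for Ccng1 (SE 0.76), 0.72 for Sesn2 (SE 1.08), 0.52 for Gadd45b (SE 0.88), 0.36 for Gadd45g (SE 1.06), 0.15 for Trp53inp1 (SE 0.70) and -0.07 for Mdm2 (SE 0.76). The test called 0 of the 10 genes, 1 at an unadjusted p under 0.05, beside 0.0425% of all genes. DESeq2 called 0 of the 10, beside 45 of all genes. Of the 10 genes, 9 had a positive difference, with a median of 0.76, and 56.5% of all genes did, with a median of 0.15. The 3 normal samples were all SWR/J LCM samples. For Gadd45g the SE of 1.06 was too wide to tell no difference from the 1.24 fitted in the samples that passed quality control. What size of difference could be detected at this depth was not tested for any of the 10 genes.

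Across the 25 samples, after median TIN, strain and sample type were regressed out of the log2 CPM, the p53 targets varied together to different degrees. Pearson's r of Cdkn1a was 0.92 with Sesn2, 0.89 with Phlda3, 0.82 with Ccng1 and 0.75 with Bax, but 0.48 with Mdm2 and -0.20 with Trp53inp1. Over the 21 pairs of the 7 p53 targets r ran from -0.29 to 0.92 with a median of 0.56. The 3 Gadd45 genes were less alike among themselves, at 0.23, 0.26 and 0.33. Gadd45g was closer to Bax (0.70), Cdkn1a (0.61), Phlda3 (0.60) and Ccng1 (0.60) than to Gadd45a or Gadd45b, while Trp53inp1 and Gadd45b were at -0.41. These values rest on samples that share group differences and library depth.

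**Figure D4:**
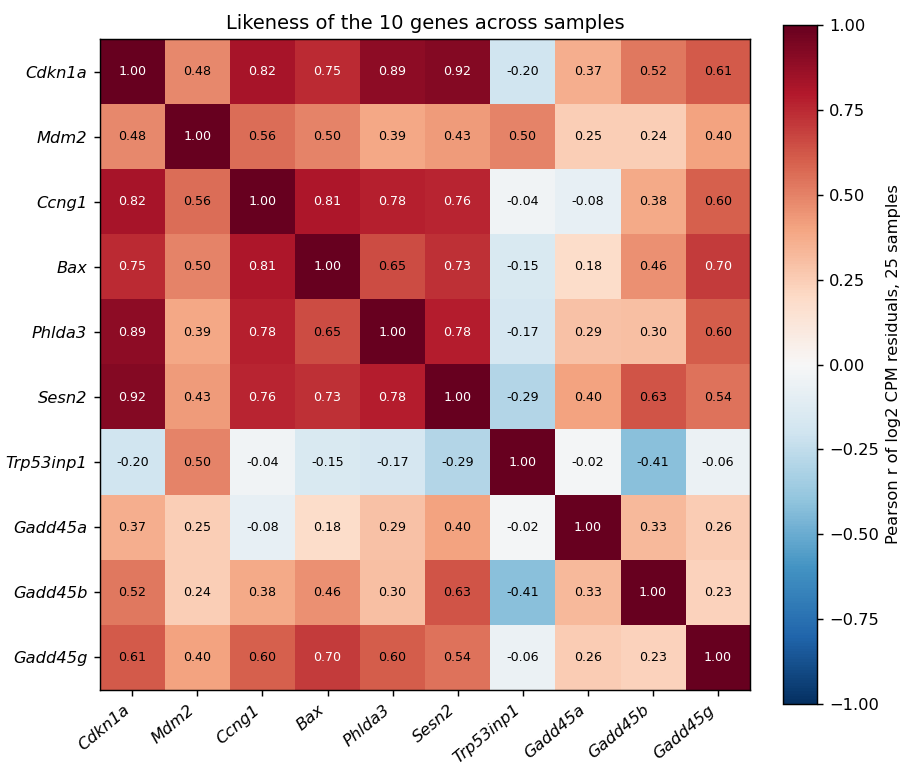
Pearson's r between the 10 genes over 25 samples, from log2 CPM after median TIN, strain and sample type were regressed out, with red for positive and blue for negative values. Cdkn1a, Ccng1, Bax, Phlda3 and Sesn2 are at 0.65 or more in every pair, and Trp53inp1 is below 0 with each of them.

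Among all 14897 genes, those most like Cdkn1a by the same measure were Sesn2 (r = 0.92), Oraov1 (0.92), Aqp5 (0.91), the p53 target Zmat3 (0.91) and the G1 cyclin gene Ccnd1 (0.91). Those most like Gadd45g were the CTP synthase gene Ctps (0.88), the transcription factor gene Nfil3 (0.85), E030010A14Rik (0.83), the AMP deaminase gene Ampd3 (0.81) and the TWEAK receptor gene Tnfrsf12a (0.81). The 2 lists held no gene in common.

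Other genes of the pathway were taken from lists set beside the 10 genes. Of 39 other p53 targets, 26 had a positive fitted difference between high-grade and normal samples, with a median of 0.28 against 0.00470 for all genes. edgeR called 0 of the 39, beside 0.0201% of all genes, with 12 at an unadjusted p under 0.05, beside 9.16% of all genes. DESeq2 called 2, both higher, beside 0.577% of all genes. The largest differences among those set to be named were 2.48 for the stress cytokine gene Gdf15 (SE 0.68), 1.78 for Pmaip1, which encodes the apoptosis activator Noxa (SE 0.53), 1.07 for the RNA-binding protein gene Zmat3 (SE 0.32) and 0.85 for the nuclease gene Aen (SE 0.26). Bbc3, which encodes Puma, stood at 0.35 (SE 0.37), the death receptor gene Fas at 0.38 (SE 0.37), Perp at 0.25 (SE 0.70) and the 14-3-3 sigma gene Sfn at 0.16 (SE 0.59). Sesn1, a relative of Sesn2, was at -0.28 (SE 0.20) and the antiproliferative gene Btg2 at -0.22 (SE 0.30).

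In mild dysplasia, 9 of these 39 targets were called (23.1%), 6 higher and 3 lower, beside the 13.2% of all genes, and the median log2 difference was 0.40 against -0.03 for all genes. Zmat3 rose (log2 difference 1.43, SE 0.42, edgeR adjusted p = 0.0322), while Sesn1 fell by 0.97 on the log2 scale (SE 0.26, adjusted p = 0.0263). Others, which are outside the naming rule and were singled out after their values were seen, were the death receptor gene Eda2r, the DNA polymerase gene Polk, Psrc1 and the matrix protein gene Thbs1, which were higher, and the apoptosis genes Bid and Casp8, which were lower. Gdf15 (2.36, SE 0.85) and Pmaip1 (1.75, SE 0.62) did not pass. Of the 25 alternatives, Zmat3 was called under 13 and Sesn1 under 14, and neither with the lymphocyte covariate, where Zmat3 was at an adjusted p of 0.479 and Sesn1 at 0.257.

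**Figure D5:**
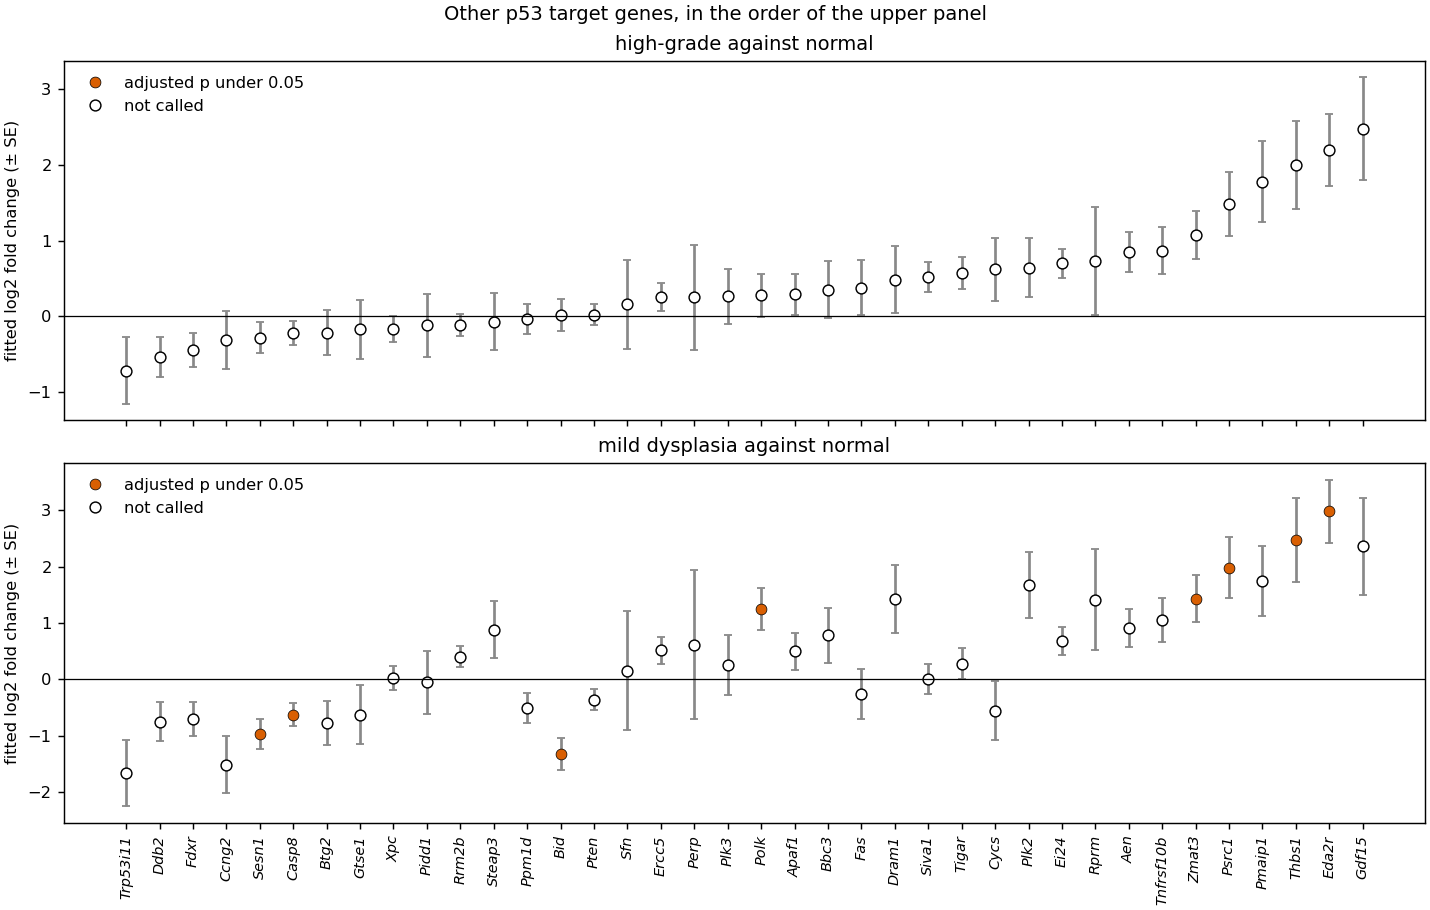
Fitted log2 fold change, with whiskers of 1 SE, of 38 of the 39 other p53 target genes in high-grade (upper panel) and mild dysplasia samples (lower panel) against the 7 normal samples, ordered by the upper panel. Filled points passed an adjusted p of 0.05 in edgeR, 0 in the upper and 8 in the lower panel.

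Among 14 regulators of the pathway, edgeR called 0 in high-grade and 0 in mild samples against normal, with 2 at an unadjusted p under 0.05 in each, and DESeq2 called 0 and 2. Of all genes, edgeR called 0.0201% and 13.2%, and 9.16% and 33.5% had an unadjusted p under 0.05. DESeq2 called 0.577% of all genes in high-grade samples, and its count for mild dysplasia is given at the end. The median log2 difference of the 14 regulators was -0.29 and 0.09. Trp53 itself was at -0.54 in high-grade (SE 0.21, adjusted p = 0.479) and -0.80 in mild samples (SE 0.28, adjusted p = 0.0558). Cdkn2a, which encodes the Mdm2 inhibitor Arf as well as p16, was at 1.87 (SE 0.91) and 1.61 (SE 0.99). Mdm4 was at -0.51 (SE 0.40) and -0.29 (SE 0.53), and the p53 relatives Trp63 at 0.34 (SE 0.52) and 0.12 (SE 0.78) and Trp73 at -0.38 (SE 0.42) and 1.0 (SE 0.59). The level of Trp53, 5.54 ± 0.60 log2 CPM in normal (SD, n = 7) and 4.83 ± 0.51 in high-grade samples (n = 13), thus did not run in the direction of Cdkn1a.

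Of 9 partners of the Gadd45 proteins, 0 were called in high-grade samples by edgeR, with 0 at an unadjusted p under 0.05, and 0 by DESeq2, and the median was -0.15. In mild dysplasia, where the median was -0.41, Pcna, the replication clamp that Gadd45 proteins bind, fell by 1.34 on the log2 scale (SE 0.42, adjusted p = 0.0414). It is also 1 of 12 proliferation genes, of which 9 were called lower in mild dysplasia (median log2 difference -2.42), where 13.2% of all genes were called and 1138 of 14897 were lower, and 0 in high-grade samples, with 0 at an unadjusted p under 0.05 and 0 by DESeq2. Mki67 fell by 2.71 (SE 0.90, adjusted p = 0.0489) in mild dysplasia and stood at -0.34 (SE 0.64) in high-grade samples. With the lymphocyte covariate Pcna was at -0.38 (adjusted p = 0.668) and Mki67 at 0.34 (adjusted p = 0.84) in mild dysplasia. The summed level of the proliferation genes ran with that of the lymphocyte genes, at 1054 to 1356 CPM in the 3 normal samples richest in the latter and 310 to 344 CPM in the other 4.

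The 18 stress and immediate early genes had a median log2 difference of 0.32 in high-grade and 0.60 in mild samples. Of these, 2 (11.1%) were called in mild dysplasia, below the 13.2% of all genes: Fos (2.03, SE 0.45, adjusted p = 0.0162) and Dusp1 (1.5, SE 0.37, adjusted p = 0.0206), both higher. In high-grade samples edgeR called 0 of the 18, with 4 at an unadjusted p under 0.05 beside 9.16% of all genes, and DESeq2 called 0. Fos was at 1.34 there (SE 0.38), Atf3 at 0.34 (SE 0.33) and Ddit3 at -0.12 (SE 0.23). With the lymphocyte covariate neither passed in mild dysplasia (Fos 1.26, SE 0.51, adjusted p = 0.22, and Dusp1 1.02, SE 0.42, adjusted p = 0.22).

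Between high-grade and mild samples 1 gene of these lists passed, beside 0.329% of all genes. It was Bid, which was higher in high-grade samples (1.34, SE 0.29, edgeR adjusted p = 0.0477). In LCM against whole lung samples Siva1 was higher (0.50, SE 0.17), while Dram1 (-1.24, SE 0.41), Tigar (-0.52, SE 0.17), Crebbp (-1.25, SE 0.34), Map2k7 (-0.54, SE 0.17) and Jun (-0.98, SE 0.27) were lower, each at an edgeR adjusted p under 0.05. That contrast called 15.3% of all genes. It called 10.3% of the other p53 targets, 7.14% of the regulators, 11.1% of the Gadd45 partners and 5.56% of the stress genes, all below that share. In A/J against SWR/J samples Dusp1 was higher (1.67, SE 0.36, edgeR adjusted p = 0.0185), beside 0.973% of all genes called. In the samples that did not pass quality control, 0 of the 39 other p53 targets were called by edgeR, with 6 at an unadjusted p under 0.05 and a median log2 difference of 0.81 between high-grade and normal. Of all genes in these libraries 6.54% had an unadjusted p under 0.05, the median was 0.15, and 26.3% had a difference of at least 0.8.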

How the data were processed

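Single-end RNA-seq libraries (TruSeq RNA kit v2, which does not mark strand) were trimmed with Trimmomatic, aligned to mm9 with STAR and quantified with RSEM by the authors, who deposited 1 table of expected counts per gene for 40 samples, without normalization. Expected counts need not be whole, since RSEM shares out ambiguous reads. Counts were rounded for the tests, and TMM factors and the gene filter (genes with an interquartile range above 0 and sum above 1 of log2 CPM at a prior count of 0.25) used the counts as deposited. The levels shown are TMM-scaled log2 CPM with a prior count of 2, computed over the 25 samples labelled passed, and separately over the other 15. Groups came from the labels, and in 4 of the 40 samples (2 of the 25) grade and description differ, of which the grade was used.

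The robust quasi-likelihood test of edgeR 4.0.16 (R 4.3.3) was fitted on all filtered genes with median TIN, strain and sample type, with Benjamini-Hochberg adjustment at 0.05; DESeq2 1.42.0 was an alternative. The standard error is the log2 fold change divided by the root of F. The tests were tried on simulated counts. Which samples share an animal is not given, so p-values measure the spread between these samples.

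The 10 genes, the 6 gene lists and the tests were chosen with earlier results of these data known. The genes always named were the 10, Trp53, Mdm4, Cdkn2a, Trp63, Trp73, Zmat3, Aen, Bbc3, Pmaip1, Fas, Perp, Sfn, Sesn1, Btg2, Gdf15, Atf3, Ddit3, Fos and Mki67, with any list member that passed where 5 or fewer did, and the 5 genes most like Cdkn1a and Gadd45g by Pearson's r of residuals. Response elements were read from the NCBIM37 genome with the GENCODE annotation, whose identifiers matched all 37310 genes. Library totals are in the text, and the printed SD and SE between samples set the precision. Figures were drawn with matplotlib 3.10.9. The alternatives were DESeq2, no TMM, no gene filter, another prior count in the filter, models without TIN or without strain and sample type, subsets by sample type or strain, and leaving out samples; the lymphocyte covariate and the fit without normal samples 7 and 10 were added after the data were seen. The values of 1 gene of the lists are not reported here.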

Additional observations from a re-analysis of the deposited data

Results flagged for a closer look

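The level of Bax in 1 moderate to severe dysplasia sample (SWR/J, LCM, 30 µmol) was 8.08 log2 CPM, and the next of the 9 samples of that grade read 7.10, the lowest 6.32. The gap to the next sample was 0.557 of the range of the group, above Dixon's critical value for 9 samples. The same sample had the highest Cdkn1a (9.14), Ccng1 (8.77) and Phlda3 (8.11) of its grade. It was 1 of 30 groups of values examined, of which chance flags about 1 in 20. For none of the 10 genes did edgeR or DESeq2 call a high-grade difference that depended on strain or on sample type.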

How the results depend on the processing

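The alternatives gave 860 fitted values of the 10 genes, which were differences or slopes per step of grade. Of these, 841 moved by less than 1 SD of the normal samples, 19 moved further and 0 of the called ones changed sign. The slopes, at most 0.49 per step in the main fit, were held to the same SD, so most had little room to move that far. That SD, which includes normal samples 7 and 10, was 1.33 for Cdkn1a and 1.03 for Phlda3, a wide measure. The larger Cdkn1a difference without those 2 samples thus counted among the 841. Calls lost or gained by the 10 genes do not enter this count. Of 1806 such values of the other named genes, 65 lost a call, 41 gained one and 1 that was called in either fit changed sign. It was Mki67 in mild dysplasia, from -2.71 to 0.34 with the lymphocyte covariate. Changes of sign in values called in neither fit were not counted, and there were such changes. Perp in mild dysplasia, for example, ran from -2.33 to 5.45 over the alternatives. The counts below are of all genes called, or of the 10 genes where said, and the cause of each shift was not tested unless fewer samples entered the fit.

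Against 3 genes in high-grade and normal samples (0 of the 10), DESeq2 called 86 (3 of the 10), no TMM 1, no gene filter 1, no TIN 5, no strain and sample type 1, LCM, whole lung or SWR/J samples alone 0 each, the fit without the 2 samples whose labels differ 6 (1 of the 10), the lymphocyte covariate 0, and the fit without normal samples 7 and 10 25 (3 of the 10). Leaving out 1 normal sample gave 0 to 6 (0 to 1 of the 10, Phlda3 without sample 10).

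Against 1972 in mild dysplasia and normal samples (3 of the 10), DESeq2 called 3584, no strain and sample type 0 (0 of the 10), LCM or whole lung alone 0 (0), without differing labels 1086, without the 2 samples that depart in principal component, TIN or correlation 984, and the lymphocyte covariate 237 (0). Leaving out 1 mild sample gave 711 to 1160 (1 to 2), and 1 normal sample 679 to 3149 (1 to 4).

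Against 49 between high-grade and mild, DESeq2 called 1319, no TMM 156, no filter 13, no TIN 2331, LCM alone 232, whole lung alone 0, SWR/J alone 5, without differing labels 2, without the departing samples 0, lymphocyte covariate 363, without normal samples 7 and 10 0, and leaving out 1 mild sample 0 to 2. For strain (145), DESeq2 called 902, no filter 253, no TIN 2463 and without the departing samples 93. For sample type, DESeq2 and the fit without the departing samples each called 1 of the 10 against 0.

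For the rank of grade (60, 1 of the 10), DESeq2 called 527 (3), no TMM 10, no TIN 166, no strain and sample type 189, LCM, whole lung or SWR/J alone 0 (0), lymphocyte covariate 0 (0) and without normal samples 7 and 10 517. Against 0, DESeq2 called 3 for the dependence on sample type, 5 for that on strain and 8 for dose. In the samples that did not pass quality control (6), DESeq2 called 45, no filter 250, and leaving out 1 normal sample 0 to 8 (0 of the 10). Low counts there limit every statement on Sesn2, Gadd45a and Gadd45g, which had at most 24 reads a high-grade sample.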
